A study of Mus musculus with 20 samples.

Results

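The step described here is the change in gene expression between 3 h and 6 h of B cell receptor stimulation in wild type mouse B cells. It rests on 4 of the 20 arrays of the series, namely the 2 wild type arrays at 3 h and the 2 at 6 h, chosen by their labels alone. RNA was measured on microarrays as log2 expression values. The cells were splenic B cells of C57BL/6 mice of mixed sex, 8 to 12 weeks old, with the genotype wild type; mb-1/TAK1+/+, purified by removing CD43-bearing cells with magnetic beads. The stimulus was anti-IgM at 10 µg/ml, which binds surface IgM and so engages the antigen receptor. It was given for 3 h or 6 h, so both groups had been stimulated and neither is an untreated control. The 4 arrays labelled TAK1-deleted at 3 h and 6 h, from mice with floxed TAK1 alleles, were treated in the same way and serve as a comparison. There the mb-1 driver deletes the gene in the B lineage, so other cells of those spleens keep the kinase. The labels do not say whether replicates came from separate mice or cultures, so p-values measure only the spread between these arrays, which may be technical.

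Cross-linking of the B cell receptor first induces immediate early genes, which need no new protein, and the products of these and of the NF-κB pathway then drive later waves as the cell leaves quiescence and grows. Type I interferons act through a cell surface receptor whose signal reaches interferon-stimulated response elements before antiviral genes and switches those genes on. Sterol synthesis is switched on by SREBP2, which its partner SCAP carries out of the endoplasmic reticulum when membrane sterol is low, and its products serve membrane growth.

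Between 3 h and 6 h the B cells raised a broad set of antiviral, interferon-induced genes and nearly the whole sterol synthesis pathway, while many immediate early transcription factors and several heat shock genes and signalling inhibitors were lower at 6 h than at 3 h. Of 11968 genes tested, 3100 (25.9%) were called, meaning an adjusted p below 0.05 in limma with Benjamini-Hochberg adjustment over all genes, and 2126 (17.8%) of these were higher at 6 h and 974 (8.14%) lower. Of the called genes, 124 (1.04% of those tested) were at least 2-fold higher and 41 (0.343%) at least 2-fold lower. The median change over all genes was 0.02 on the log2 scale and the median standard error 0.11. Both 6 h arrays lay above both 3 h arrays in 4002 genes (33.44%) and below them in 3093 (25.84%). The calls leaned on the pairing of arrays by replicate number, and without it 1042 genes were called, all of them among the 3100. Without 3 h replicate 1 the count was 2022 and without 6 h replicate 2 it was 1602. Of the calls 68.58% were higher, and 58.4% when the arrays were quantile normalized again. Of the 124 genes that were at least 2-fold higher, 36 belonged to the list of interferon-induced effectors and 7 to sterol synthesis, and 50 to any of the 58 lists used here. The 36 include Ddx60 and Phf11d, which passed the filter on dim probe sets only through the wild type 6 h arrays.

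**Figure D1:**
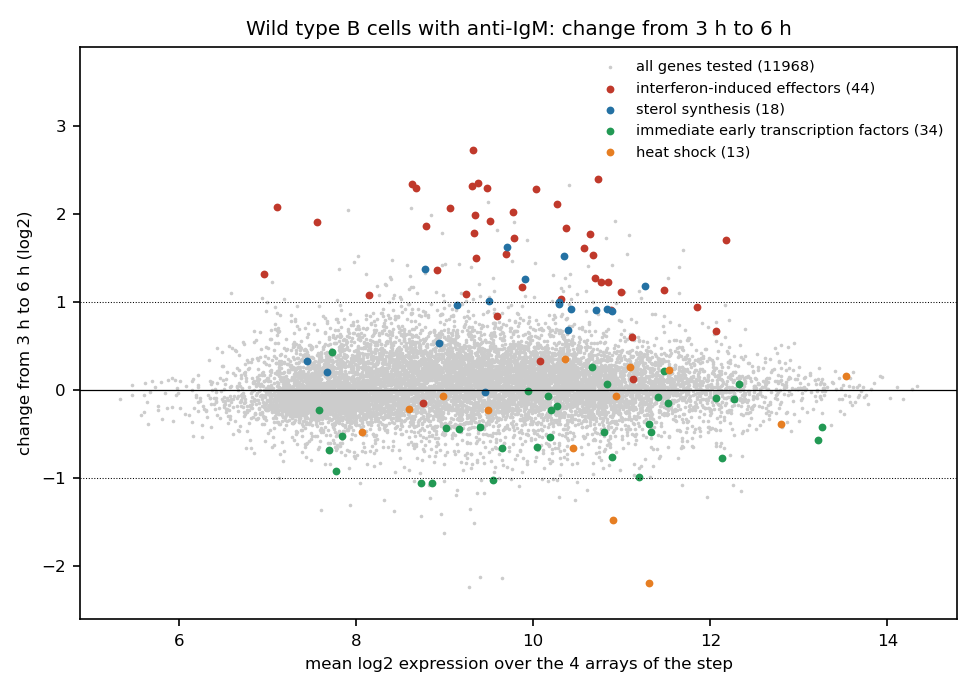
Each point is one gene, with its mean log2 expression over the 4 wild type arrays on the horizontal axis and its change from 3 h to 6 h (log2) on the vertical axis. Dotted lines mark 2-fold changes. Interferon-induced effectors reach 2.73 (Slfn5) and sterol genes 1.63 (Lss), while Hspb1 at -2.18 is the lowest heat shock gene.

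**Figure D2:**
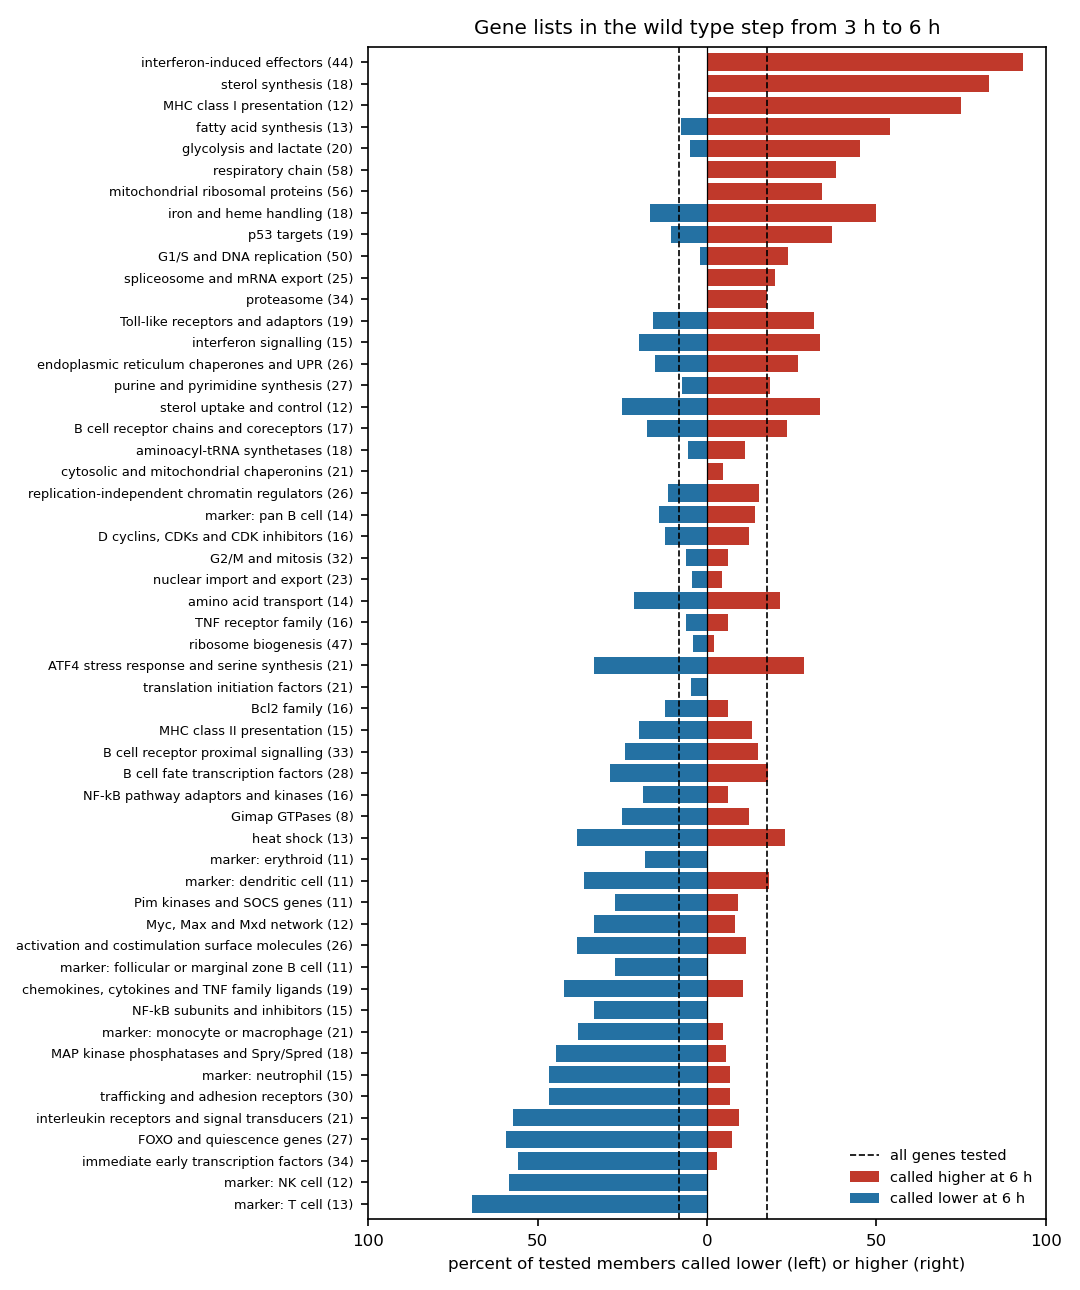
Bars give, for each gene list with at least 8 tested members (number in brackets), the percent of members called higher (right) or lower (left) at 6 h in wild type cells. Dashed lines mark the 17.8% of all genes called higher and the 8.14% called lower.

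The labelled cell type was borne out by its markers, and many markers of T cells, NK cells, monocytes and neutrophils were lower at 6 h, against 8.14% of all genes. Summed over 14 pan B cell markers, log2 expression was 16.59 and 16.34 at 3 h and 16.41 and 16.32 at 6 h, with 2 members called higher and 2 lower. The B cell surface gene Ms4a1 (CD20) stood at 12.04 and 12.06 at 3 h and at 12.08 and 11.98 at 6 h. Of 13 T cell markers 9 were lower and none higher, with a summed level of 13.29 to 13.36 at 3 h and 12.71 to 12.87 at 6 h. Of 12 NK cell markers 7 were lower and none higher, with a summed level of 12.43 to 12.53 at 3 h and 11.86 to 11.97 at 6 h. Of 21 monocyte or macrophage markers 8 were lower and 1 higher (12.79 to 12.82, then 12.51 to 12.66), and of 15 neutrophil markers 7 were lower and 1 higher (13.09 to 13.19, then 12.86 to 13.08). Of 11 dendritic cell markers 4 were lower and 2 higher, and the higher ones included Bst2, itself interferon-induced, and their summed level was 12.24 to 12.59 at 3 h and 12.75 to 12.77 at 6 h. Of 11 erythroid markers 2 were lower (11.42 to 11.59, then 10.89 to 10.92), and of 6 platelet or megakaryocyte markers none was called (10.86 to 10.90, then 10.56 to 10.75). No array value is 0, so no defining marker could be called absent. In bulk RNA a fall in the number of cells of a type and less RNA per cell cannot be told apart. Without the replicate pairing 2 T cell, 3 NK cell, 3 monocyte and 3 neutrophil markers were called lower, and without 3 h replicate 2 the counts were 3, 4, 4 and 3. Without 6 h replicate 1 they were 4 for NK cells, 2 for monocytes and 4 for neutrophils, without 6 h replicate 2 the monocyte count was 4, and the dendritic cell count was 1 or 2 without 3 h replicate 2 or 6 h replicate 1.

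Interferon-induced effectors had the highest share of members called higher among the 58 lists. Of the 44 tested, Ddx60 and Phf11d needed the wild type 6 h arrays to pass the filter on dim probe sets (7.45 in at least 2 arrays), so they were tested because they stood high there. Of the other 42 effectors 39 were higher at 6 h and none was lower, against 17.8% of all genes called higher, and 34 rose at least 2-fold. Their median change was 1.59 on the log2 scale, or 3.00-fold, beside a median over all genes of 0.02. The exceptions were Gbp3, Gbp7 and Trim25, with changes of -0.15, 0.33 and 0.13 that were not called. Over all 44 the number called higher was 41, and it was 41 with each of the 4 arrays left out in turn and between 39 and 42 under the other alternatives run.

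The ligands were examined first. Ifnb1, which encodes interferon beta, stood at 6.18 and 6.26 at 3 h and at 6.17 and 6.24 at 6 h, below the filter of 7.45 on dim probe sets, so it was not tested. Over the 11 probe sets of interferon alpha and beta genes the change in a single replicate lay between -0.32 and 0.35. Ifng, encoding interferon gamma, was at 8.15 and 8.34 at 3 h and at 8.49 and 8.53 at 6 h, a difference of 0.27 with an adjusted p of 0.18 in limma that was not called. No tested interferon gene was called higher between 3 h and 6 h. Ifnb1 and others that stayed below the filter, such as Ifna2 and Ifna4, could not be called, and interferon protein was not measured. Before this step, Ifng in wild type cells stood at 7.59 and 7.75 at 0 h and at 9.58 and 9.32 at 1 h. Whether that earlier level bears on the effectors was not tested.

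Receptors and signal transducers moved apart from one another. Of 15 tested signalling genes 5 were higher and 3 lower, against 17.8% and 8.14% of all genes, with a median of -0.07. Ifnar1, a chain of the type I interferon receptor, was at 11.08 and 11.10 at 3 h and at 10.71 and 10.78 at 6 h, a fall of -0.35 ± 0.10 (SE, n = 2 and 2, adjusted p = 0.0111, limma). Ifngr1, a chain of the interferon gamma receptor, fell by 0.53 on the log2 scale, with no overlap between the arrays of the 2 times. Stat2, a transcription factor of the type I pathway, was at 10.25 and 10.11 at 3 h and at 11.64 and 11.56 at 6 h, a rise of 1.42 ± 0.08 (adjusted p = 2.95e-10). Irf7, the factor that amplifies interferon production, was at 10.03 and 9.90 at 3 h and at 11.94 and 11.84 at 6 h, a rise of 1.92 ± 0.13 (adjusted p = 2.85e-09). In both genes the 6 h arrays stood more than 1 log2 unit above the 3 h arrays. Smaller rises were called for Tyk2 (0.48), a receptor-bound kinase, for Irf9 (0.44), a DNA-binding factor of the same pathway, and for Irf2 (0.28). Irf1, a factor that interferon gamma and NF-κB induce, went the other way, from 11.54 and 11.67 at 3 h to 10.99 and 11.13 at 6 h (-0.55 ± 0.10, adjusted p = 0.000296). The calls of Ifnar1, Tyk2, Irf9 and Irf2 were lost without the replicate pairing and without at least 1 of the 4 arrays. The number called higher was 3 without 3 h replicate 1 or 6 h replicate 2 and 2 without the pairing.

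Among the effectors the largest rise was that of Slfn5, a member of the Schlafen family. It was at 7.94 and 7.98 at 3 h and at 10.72 and 10.66 at 6 h, a rise of 2.73 ± 0.13 (6.64-fold, adjusted p = 2.34e-11). Usp18, the protease that removes ISG15 from proteins and restrains the interferon receptor, was at 9.56 and 9.49 at 3 h and at 11.98 and 11.88 at 6 h (2.40 ± 0.10). Eif2ak2, the kinase PKR that senses double-stranded RNA and blocks translation, was at 8.24 and 8.15 at 3 h and at 10.74 and 10.37 at 6 h (2.36 ± 0.16). Mx1, a dynamin-like antiviral GTPase, was at 7.58 and 7.35 at 3 h and at 9.97 and 9.64 at 6 h (2.34 ± 0.11). In each of these genes both 6 h values exceeded both 3 h values by at least 2 log2 units. Several families had more than 1 member that rose. They were the 2'-5' oligoadenylate synthetases, which activate RNase L, with Oas3 at 2.29, Oasl2 at 2.29, Oas2 at 2.07, Oasl1 at 1.28 and Oas1a at 1.08 and with Oas1b going from 8.98 and 8.22 at 3 h to 10.28 and 9.93 at 6 h; the IFIT proteins, which bind foreign RNA ends, with Ifit3 at 2.11, Ifit2 at 1.87 and Ifit1 at 1.73; and the RIG-I-like sensors, with Dhx58 at 2.30, Ddx58 at 1.53 and Ifih1 at 1.37. Members of the Oas, Ifi200, Slfn, Phf11 and Trim30 families are close copies, and the probe sequences were not used here, so signal shared between copies cannot be told apart. Rsad2, encoding viperin, rose by 1.92 and Isg20, an exonuclease, by 1.78. Ddx60 was at 6.03 and 6.11 at 3 h, in the dim range below the filter value, and at 8.24 and 8.06 at 6 h. Background can understate its rise of 2.08, while its being tested because it stood high at 6 h can overstate it.

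The DNA before the start sites of these genes is shown because their transcripts rose together. The table of RefSeq promoters (GRCm38.p6) held 29 of the 41 called effectors. The letters GAAA, any 2 bases and GAAA again, a core of the interferon-stimulated response element, were searched on both strands of the 250 bases before the gene start, and a gene with several or overlapping matches was counted once. They were found in 12 of 29 (41.4%), against 313 of 9586 tested genes with a promoter (3.27%). Ddx60, tested because it stood high in the wild type 6 h arrays, is among the 12. Windows are given below for 5 genes, on the gene's own strand, with every match in it in capitals (a match on the other strand reads as TTTC, 2 bases and TTTC here).
Slfn5, chr11:82951915-82951988, plus strand: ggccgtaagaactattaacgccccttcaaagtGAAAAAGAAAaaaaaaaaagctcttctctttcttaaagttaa
Oas3, chr5:120777693-120777766, minus strand: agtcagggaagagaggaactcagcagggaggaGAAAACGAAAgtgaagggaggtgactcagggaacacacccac
Ifit3, chr19:34583341-34583416, plus strand: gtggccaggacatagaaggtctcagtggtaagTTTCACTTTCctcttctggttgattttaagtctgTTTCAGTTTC
Rsad2, chr12:26456531-26456604, minus strand: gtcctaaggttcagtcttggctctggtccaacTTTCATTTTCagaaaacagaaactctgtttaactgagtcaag
Ifit1, chr19:34640753-34640826, plus strand: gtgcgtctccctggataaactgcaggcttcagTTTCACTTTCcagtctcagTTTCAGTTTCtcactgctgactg
The matches began 155 bases before the gene start in Slfn5, 75 in Oas3, 156 and 122 in Ifit3, 120 in Rsad2 and 104 and 85 in Ifit1. A match of letters is a description of the window and was not tested for binding.

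Many of these genes had been lower at 3 h than in unstimulated cells. The median change of the 44 effectors from 0 h to 3 h was -0.64, from 0 h to 6 h 0.98, and from 6 h to 24 h -1.33. These comparisons share arrays with the step from 3 h to 6 h, and the 44 include Ddx60 and Phf11d. From 0 h to 3 h 30 effectors were called lower and 6 higher, against 30.1% and 28.8% of all genes. From 0 h to 6 h 36 were called higher and 5 lower, against 32.2% and 24.9%. At 24 h 41 were called lower than at 6 h and 1 higher, against 22.4% and 15.7%. Slfn5 thus had a mean of 9.92 at 0 h and of 8.37 at 24 h, on either side of its peak at 6 h, and Mx1 had means of 8.13 and 7.66.

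**Figure D3:**
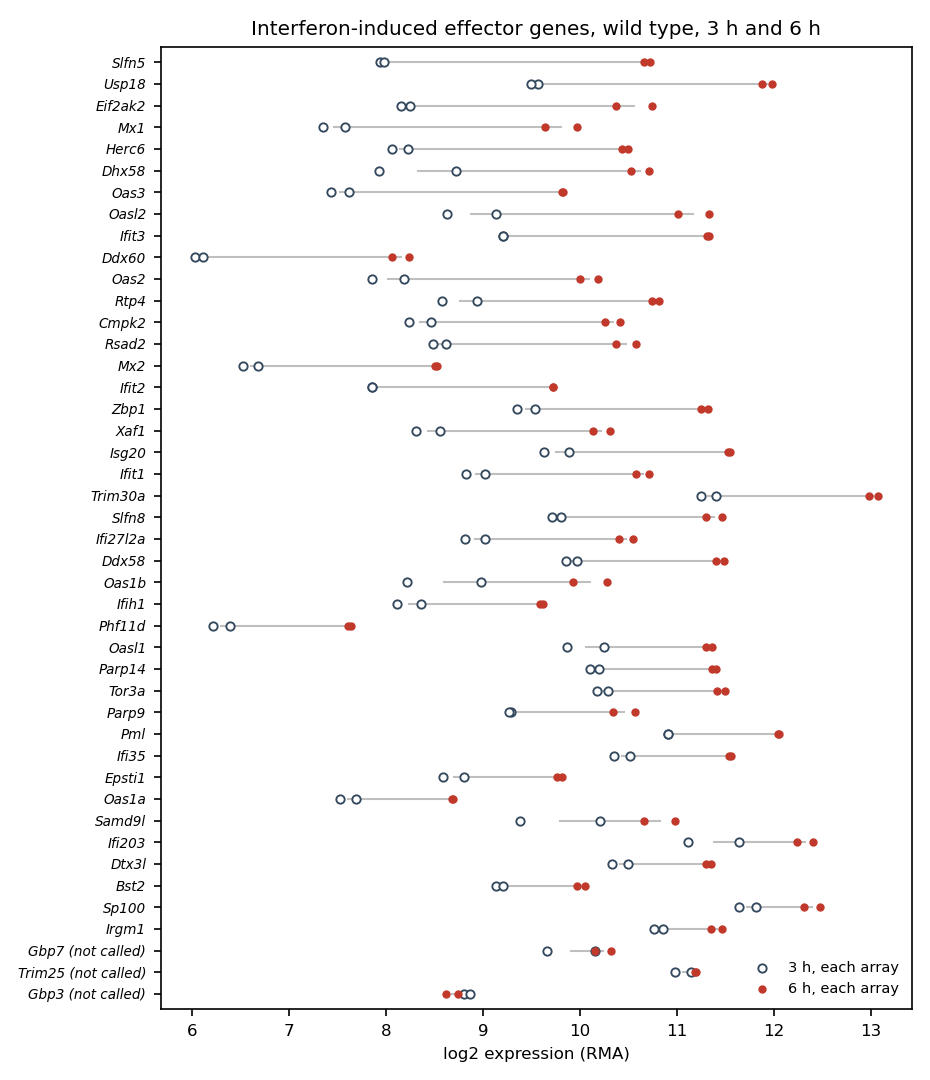
Log2 expression of the 44 tested interferon-induced effectors in each wild type array at 3 h (open circles) and 6 h (filled circles), ordered by the size of the change, with a grey line joining the group means. The 6 h arrays lie above the 3 h arrays in 43 genes, counting the tied or near-tied points of Gbp7 by their unrounded values, and below them in Gbp3. Over all genes tested, both 6 h arrays lay above both 3 h arrays in 33.44%. Ddx60 and Phf11d passed the filter on dim probe sets only through the wild type 6 h arrays.

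Most tested genes of MHC class I presentation rose, and Toll-like receptor genes moved both ways. Among the listed genes of the class I molecules themselves, H2-K1, H2-D1, H2-Q7 and H2-T23 were not tested. Of 12 tested genes of class I presentation 9 were higher and none lower, against 17.8% and 8.14% of all genes, with a median of 0.47. They held the peptide transporter Tap1 (0.57) and Tap2 (0.30), the peptide-loading factor Tapbp, the immunoproteasome subunits Psmb8, Psmb9 and Psmb10, the proteasome activators Psme1 and Psme2, and Nlrc5, the activator of class I genes. Tapbp was at 11.57 and 11.48 at 3 h and at 12.23 and 12.34 at 6 h, a rise of 0.76 ± 0.08 (adjusted p = 1.74e-06, limma), and Psmb8 rose by 0.68 ± 0.10. Of 19 Toll-like receptor and adaptor genes 6 (31.6%) were higher and 3 (15.8%) lower. The higher ones were the nucleic acid receptors Tlr7 (0.77), Tlr9 (0.40) and Tlr3 (0.48), their chaperone Unc93b1 (0.78), Ly86 (0.52) and Irak1 (0.32), and the lower ones were Tlr1 (-0.53), Irak2 (-0.38) and Irak3 (-0.37). Tlr7 was at 11.06 and 10.49 at 3 h and at 11.65 and 11.45 at 6 h, where the groups did not overlap but 1 of the 3 h arrays lay close. Without the replicate pairing the calls of Tap1, Tap2, Psme1, Nlrc5, Tlr3, Tlr7, Tlr9, Irak1, Irak2 and Irak3 were lost, which left 5 class I genes and 2 higher Toll-like receptor genes, and the latter count was 4 without 6 h replicate 2. The calls of Tap2, Psme1, Psmb10, Tlr3, Irak1, Irak2 and Irak3 were lost without at least 1 of the 4 arrays.

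The sterol pathway rose almost as a whole. Of 18 tested genes of sterol synthesis 15 were higher and none lower, against 17.8% of all genes called higher, and 7 rose at least 2-fold. The median change was 0.95, or 1.93-fold. The number called higher lay between 14 and 16 under every alternative run. Pmvk, Ggps1 and Tm7sf2 were not called, with changes of 0.20, -0.02 and 0.34, and Ggps1 lies on the branch that makes geranylgeranyl groups and not sterol.

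In pathway order, the called enzymes that build isoprenoids rose by 0.91 to 1.02, while Pmvk, the step between Mvk and Mvd, was not called. Hmgcs1, the synthase that makes HMG-CoA, was at 10.42 and 10.47 at 3 h and at 11.29 and 11.40 at 6 h (0.91 ± 0.11, adjusted p = 8.24e-06). Mvk, Mvd, Idi1 and Fdps, which with Pmvk carry mevalonate to farnesyl diphosphate, rose by 0.96, 1.02, 0.91 and 1.00. The first committed sterol steps come next, with the squalene synthase Fdft1 at 1.18 and the squalene epoxidase Sqle at 0.93. Lss, which closes squalene epoxide into lanosterol, was at 8.97 and 8.81 at 3 h and at 10.59 and 10.46 at 6 h, the largest rise of the pathway (1.63 ± 0.10, adjusted p = 1.25e-09). Of the later enzymes, Hsd17b7 was at 9.78 and 9.39 at 3 h and at 11.15 and 11.08 at 6 h (1.53 ± 0.11), and Nsdhl was at 9.42 and 9.13 at 3 h and at 10.69 and 10.39 at 6 h (1.27 ± 0.10). Dhcr7, which makes cholesterol from its last precursor, was at 8.20 and 7.98 at 3 h and at 9.51 and 9.42 at 6 h (1.38 ± 0.12). In none of these 5 genes with array values did the 2 times overlap. Cyp51, Msmo1, Sc5d and Ebp rose by 0.98, 0.92, 0.69 and 0.54, and the call of Ebp was lost without the replicate pairing, without 3 h replicate 1 and without 6 h replicate 2.

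**Figure D4:**
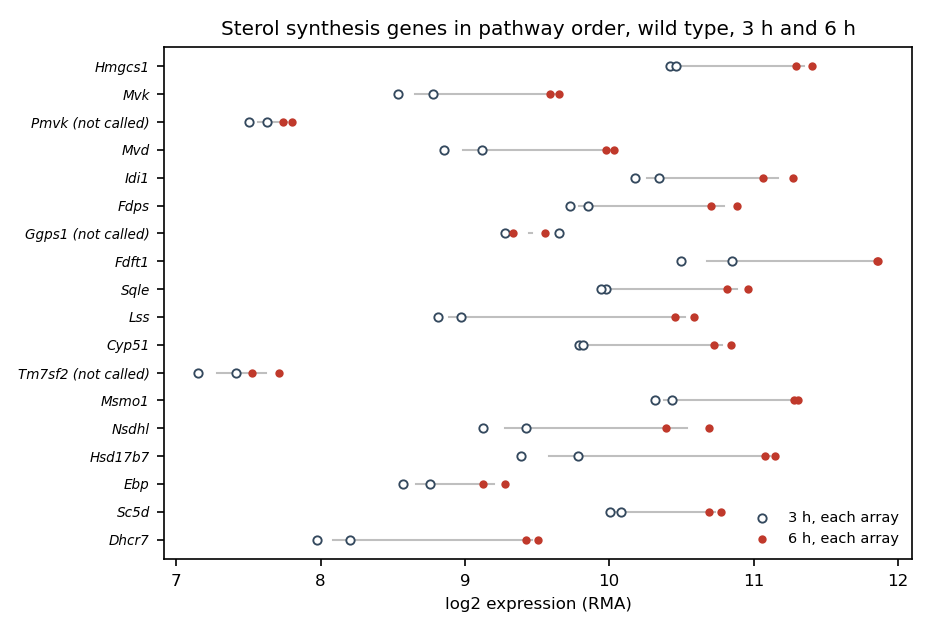
Log2 expression of the 18 tested sterol synthesis genes in pathway order, from Hmgcs1 at the top to Dhcr7 at the bottom, in each wild type array at 3 h (open circles) and 6 h (filled circles), with a grey line joining the group means. The largest gap is that of Lss (1.63), and the 2 times overlap in Ggps1.

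Control and transport of sterol were divided by role. Of 12 tested genes 4 were higher and 3 lower, against 17.8% and 8.14% of all genes. The higher ones were Stard4, a carrier of cholesterol inside the cell, at 0.60, Npc2, which exports it from lysosomes, at 0.37, and the regulators Scap at 0.23 and Srebf2 at 0.21. The 3 lower genes are targets of the sterol-sensing LXR receptors that lower cell cholesterol, namely the efflux pumps Abcg1 and Abca1 and Mylip, the ligase that degrades the LDL receptor. Abcg1 was at 10.09 and 9.96 at 3 h and at 9.16 and 9.02 at 6 h, a fall of -0.93 ± 0.09 (adjusted p = 1.56e-07), and Abca1 fell by 0.60 and Mylip by 0.36 on the log2 scale. Abcg1 had been at a mean of 11.19 at 0 h and was at 8.52 at 24 h. Of 13 genes of fatty acid synthesis 7 were higher and 1 lower, against the same shares of all genes. The higher ones included the desaturases Fads2 at 0.69 and Scd2 at 0.67, Elovl6 at 0.54, Acly at 0.44 and Acaca at 0.35. The lower one was Elovl5 at -0.44. The calls of Scap, Srebf2, Npc2, Mylip, Fads2, Scd2, Elovl6, Acly and Acaca were lost without the replicate pairing, and all of these but Fads2 and Scd2 also without at least 1 of the 4 arrays. The counts called higher were 1 for sterol control and 2 for fatty acid synthesis without 3 h replicate 1, 1 and 4 without 6 h replicate 2, and 1 and 0 without the pairing.

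The letters CCAAT, the box bound by NF-Y, which works beside SREBP at sterol promoters, were found on either strand of the 250 bases before the start in 12 of 12 called sterol genes with a RefSeq promoter (100%), against 39.8% of all 9586. The letters TCACNCCAC of the sterol response element were found in Hmgcs1 alone, against 1.24% of all. Windows of the 3 sterol genes with the largest rises, and of Hmgcs1, are given on the gene's own strand (GRCm38.p6), with every match of the motif in capitals (CCAAT in the first 3, the sterol response element in Hmgcs1; ATTGG is CCAAT on the other strand).
Lss, chr10:76531511-76531579, plus strand: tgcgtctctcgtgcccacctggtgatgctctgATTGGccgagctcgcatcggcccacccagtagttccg
Hsd17b7, chr1:169969242-169969310, minus strand: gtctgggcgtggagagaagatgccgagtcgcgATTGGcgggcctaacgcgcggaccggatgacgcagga
Dhcr7, chr7:143830097-143830169, plus strand: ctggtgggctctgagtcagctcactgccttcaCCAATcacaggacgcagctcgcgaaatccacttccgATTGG
Hmgcs1, chr13:119690182-119690254, plus strand: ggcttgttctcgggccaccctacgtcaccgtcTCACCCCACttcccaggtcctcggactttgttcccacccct
Hsd17b7 and Hmgcs1 each held 3 CCAAT matches in the searched bases, of which 1 is shown for Hsd17b7 and none for Hmgcs1. Short motifs such as CCAAT occur often, and a match was not tested for binding.

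Many transcription factors of the first hours came down. Of 34 immediate early genes 19 were lower and 1 (Id3) higher, against 8.14% of all genes called lower, with a median of -0.42. Maff was at 9.38 and 9.40 at 3 h and at 8.42 and 8.24 at 6 h (-1.06 ± 0.11, adjusted p = 8.72e-07), and Fosb, a partner in the AP-1 factor, was at 9.37 and 9.15 at 3 h and at 8.26 and 8.16 at 6 h (-1.05 ± 0.14). Atf3, a stress-induced factor, was at 10.20 and 9.92 at 3 h and at 9.16 and 8.93 at 6 h (-1.01 ± 0.12). Nr4a2 fell by 0.99, Fos by 0.91, Nr4a3 by 0.77, Fosl2 by 0.75, Nr4a1 by 0.56 and Egr1 by 0.47 on the log2 scale. Myc, which encodes a transcription factor of cell growth, was at 13.73 and 13.42 at 3 h and at 13.39 and 13.30 at 6 h, where the groups nearly touched (-0.23 ± 0.08, adjusted p = 0.0336). The calls of Egr1, Myc and Id3 were lost without the replicate pairing and without at least 1 array. Maff had stood at a mean of 6.71 at 0 h and was at 7.16 at 24 h.

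The inducible chaperones Hspb1 and Hspa1a fell by more than 2-fold. Of 13 heat shock genes 5 (38.5%) were lower and 3 (23.1%) higher, against 8.14% and 17.8% of all genes, with a median of -0.21. Hspb1, the small heat shock protein HSP27, was at 12.73 and 12.06 at 3 h and at 10.40 and 10.02 at 6 h, a fall of -2.18 ± 0.23 (4.55-fold, adjusted p = 8.94e-07). Hspa1a, the inducible HSP70, was at 11.75 and 11.52 at 3 h and at 10.34 and 9.99 at 6 h (-1.47 ± 0.10). Both 6 h arrays lay more than 1 log2 unit below the 3 h arrays in these genes. Hsph1 fell by 0.66, Bag3 by 0.47 and Hsp90aa1 by 0.38, and the 3 higher members, Chordc1, Stip1 and Hspa8, rose by at most 0.36. The calls of those 3 and of Bag3 were lost without the replicate pairing and without at least 1 array. The letters GAA, TTC and GAA of the heat shock element, each separated from the next by 2 bases, were searched on both strands. They were in none of the 4 lower heat shock genes with a promoter and in 0.49% of all, in a window of 250 bases.

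**Figure D5:**
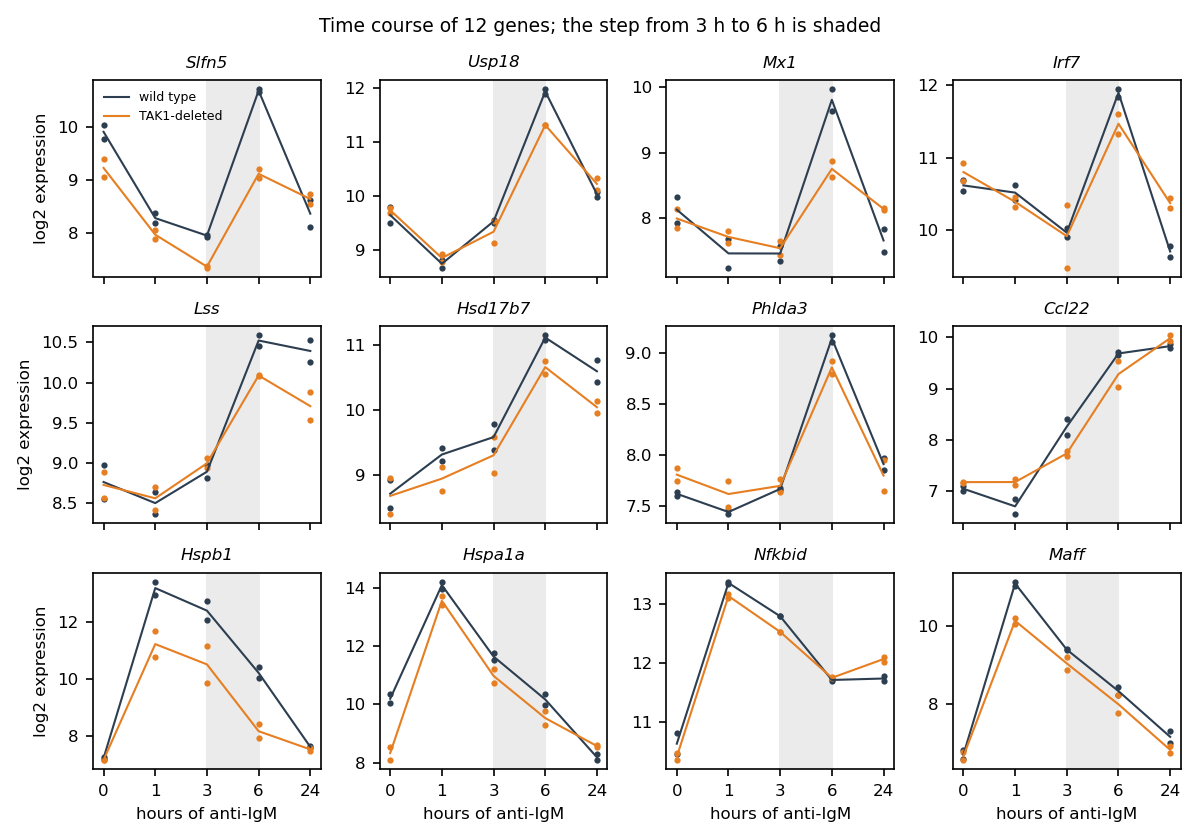
Log2 expression of 12 genes over 0, 1, 3, 6 and 24 h of anti-IgM (time points evenly spaced, not to scale) in wild type (dark) and TAK1-deleted (orange) arrays, with 2 points per group and lines through the means. In the shaded step Slfn5, Usp18, Mx1, Irf7, Lss, Hsd17b7, Phlda3 and Ccl22 go up and Hspb1, Hspa1a, Nfkbid and Maff go down in both genotypes.

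Negative regulators of signalling were among the genes that fell. Of 15 NF-κB subunits and inhibitors 5 were lower and none higher, against 8.14% and 17.8% of all genes. Nfkbid, an IκB protein of the nucleus, was at 12.80 and 12.80 at 3 h and at 11.71 and 11.73 at 6 h (-1.08 ± 0.08, adjusted p = 1.80e-08), and Tnfaip3, the A20 enzyme that dampens NF-κB, was at 11.85 and 11.76 at 3 h and at 11.10 and 11.01 at 6 h (-0.75 ± 0.10). The subunit gene Rel was at 13.66 and 13.44 at 3 h and at 13.57 and 13.43 at 6 h, where the groups overlapped and no call was made. Nfkbia, the classical inhibitor, changed by -0.20 with an adjusted p of 0.0709 in limma. Of 18 MAP kinase phosphatases and Sprouty or Spred genes 8 were lower and 1 higher, led by Dusp1 (-0.85), Dusp22 (-0.63) and Dusp8 (-0.56). Of 11 Pim kinase and SOCS genes 3 were lower, with Pim1 at -0.75 and Socs3 at -0.58, while Socs2, a STAT5-induced inhibitor of cytokine signalling, went from 7.92 and 7.81 at 3 h to 9.09 and 9.47 at 6 h (1.42 ± 0.14, adjusted p = 2.78e-07). Without the replicate pairing 2 NF-κB genes and 2 phosphatase or Sprouty genes were called lower. The NF-κB count was 2 without 6 h replicate 1 and 3 without 3 h replicate 2 or 6 h replicate 2, the phosphatase count was 4 without 6 h replicate 1, and the Pim and SOCS count was 1 without 3 h replicate 1. The call of Dusp1 was lost without the pairing, that of Dusp8 without 6 h replicate 2 and that of Socs3 without 3 h replicate 1.

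The ATF4 programme was split between stress factors and synthetic enzymes. Of 21 genes 6 (28.6%) were higher and 7 (33.3%) lower, against 17.8% and 8.14% of all genes. Atf3, Sesn2 (-0.87), Chac1 (-0.80), Trib3 (-0.57) and Ddit3 (-0.45), which respond to amino acid shortage or limit growth, fell. The serine synthesis enzymes Phgdh and Psat1, the asparagine synthetase Asns and the folate enzymes Shmt2, Mthfd1l and Mthfd1 rose by 0.76, 0.58, 0.54, 0.52, 0.46 and 0.34. The rise of Phgdh had a standard error of 0.12. The glycine transporter gene Slc6a9 rose by 1.45 ± 0.18, from 9.61 and 8.98 at 3 h to 10.93 and 10.56 at 6 h, where the replicates differed by more than in most genes at 3 h but did not overlap with 6 h. The calls of Psat1, Asns, Shmt2, Mthfd1l and Mthfd1 were lost without the replicate pairing, and those of Asns, Shmt2, Mthfd1l, Mthfd1 and Ddit3 without at least 1 of the 4 arrays. The number higher was 2 without 6 h replicate 2 and 1 without the pairing, and the number lower was 4 without 3 h replicate 2.

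Genes of energy metabolism moved upward by small amounts. Of 58 respiratory chain genes 22 were higher and none lower, with a median of 0.24 and with Ndufs6, a subunit of complex I, at 0.77 ± 0.12. Of 56 mitochondrial ribosomal protein genes 19 were higher and none lower, also with a median of 0.24. Of 20 genes of the glycolysis list 9 were higher and 1 lower. The largest rise in that list was that of Bnip3 (0.85), which marks mitochondria for removal and is not itself a glycolysis enzyme. Ribosome biogenesis genes, of which 45 of 47 were called higher at 3 h than at 0 h (28.8% of all genes were), had 1 member higher and 2 lower between 3 h and 6 h. The shares of the respiratory, mitochondrial ribosomal and glycolysis lists called higher (37.9%, 33.9% and 45%) exceeded the 17.8% of all genes, but without the replicate pairing the counts were 8, 5 and 4. Without 6 h replicate 2 they were 12, 7 and 2, and without 3 h replicate 1 the mitochondrial ribosomal count was 9.

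Several enzymes of heme synthesis rose. Of 18 genes of iron and heme handling 9 (50%) were higher and 3 (16.7%) lower, against 17.8% and 8.14% of all genes. The higher ones included 5 enzymes of heme synthesis, namely Alas1 (0.57), Cpox (0.52), Urod (0.43), Fech (0.36) and Uros (0.32), and the constitutive heme oxygenase Hmox2, which went from 10.01 and 9.78 at 3 h to 10.76 and 10.72 at 6 h (0.85 ± 0.09, adjusted p = 1.79e-06). The heme-regulated repressor Bach1 (-0.61), the inducible heme oxygenase Hmox1 (-0.46) and the iron store gene Fth1 (-0.27) fell. Hmox1 is also expressed by macrophages and belongs to the list of 21 monocyte or macrophage markers. Of that list 8 were lower over the same step, Hmox1 included. The part of macrophages in the fall of Hmox1 was not tested. The calls of Alas1, Cpox, Fech, Uros and Hmox1 were lost without the replicate pairing, and those of Alas1, Fech, Uros, Urod and Hmox1 without at least 1 of the 4 arrays. The number higher was 4 without 6 h replicate 2 or without the pairing.

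Some genes of DNA replication rose, and few mitotic genes were called. Of 50 G1/S and replication genes 12 (24%) were higher and 1 (2%) lower, near the 17.8% and below the 8.14% of all genes. The higher ones included Rpa3 (0.87), a subunit of the single-strand binding protein RPA, the clamp loader genes Rfc4 (0.80) and Rfc3 (0.69), and the primase and polymerase genes Prim1 (0.77), Pole2 (0.74), Pold2 (0.57) and Pola1 (0.52). Rfc4 was at 9.42 and 9.54 at 3 h and at 10.28 and 10.28 at 6 h (0.80 ± 0.13, adjusted p = 0.000107). The helicase gene Mcm2 was at 10.58 and 10.62 at 3 h and at 10.47 and 10.45 at 6 h, with no call. Of 32 G2/M genes 2 were higher and 2 lower. From 6 h to 24 h 49 of the 50 replication genes and 31 of the 32 G2/M genes were called higher, against 15.7% of all genes, in a comparison that shares the 6 h arrays. The replication count was 4 without the replicate pairing, 7 without 3 h replicate 1 and 5 without 6 h replicate 2, and Prim1, Pole2 and Pola1 were among the calls lost without the pairing. The cyclin gene Ccnd2 changed by 0.21 with an adjusted p of 0.209 in limma and was not called.

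Targets of p53 rose in part. Of 19 genes 7 (36.8%) were higher and 2 (10.5%) lower, against 17.8% and 8.14% of all genes. Phlda3, which restrains AKT, was at 7.67 and 7.66 at 3 h and at 9.11 and 9.18 at 6 h, a rise of 1.48 ± 0.10 (adjusted p = 3.56e-09). Tnfrsf10b, a death receptor, was at 7.23 and 7.32 at 3 h and at 8.43 and 8.18 at 6 h (1.03 ± 0.17), Zmat3 rose by 0.97 and Ccng1, a cyclin that p53 induces, from 11.74 and 11.63 to 12.68 and 12.62 (0.96 ± 0.08). Gtse1, Ei24 and Mdm2 rose by 0.81, 0.72 and 0.28, and Gadd45a and Sesn2 fell. The calls of Mdm2 and Gadd45a were lost without the replicate pairing and without at least 1 array. At 24 h 13 of the 19 were called lower than at 6 h and none higher, against 22.4% and 15.7% of all genes.

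More genes of secreted factors and of their receptors were called lower than higher. Of 19 chemokine, cytokine and TNF family genes 8 (42.1%) were lower and 2 (10.5%) higher, against 8.14% and 17.8% of all genes. Ccl22, a chemokine that attracts CCR4-bearing T cells, was at 8.41 and 8.11 at 3 h and at 9.70 and 9.66 at 6 h (1.42 ± 0.13, adjusted p = 1.27e-07), and Csf1 rose by 0.83 ± 0.11. Ccl4, an early chemokine, was at 10.69 and 10.52 at 3 h and at 9.93 and 9.63 at 6 h (-0.83 ± 0.11). Of 21 interleukin receptor and signal genes 12 were lower and 2 higher, with the decoy receptor Il1r2 at -0.96, Il18r1 at -0.88 and Il2rb at -0.83, and with Il15ra at 0.75 and Stat5a at 0.37. Il15ra was at 8.85 and 8.85 at 3 h and at 9.60 and 9.60 at 6 h. Il2rb and Il18r1 are also genes of NK and T cells and Il1r2 of neutrophils, many of whose markers were lower over the same step, and their part in these falls was not tested. The number of secreted factor genes called lower was 5 without the replicate pairing, 3 h replicate 2 or 6 h replicate 1. The number of receptor genes called lower was 6 without the replicate pairing and 7 without 6 h replicate 1, and the call of Il2rb was lost without the pairing and that of Stat5a without 6 h replicate 2.

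Many genes of quiescence and of homing also declined. Of 27 FOXO and quiescence genes 16 were lower and 2 higher, against 8.14% and 17.8% of all genes. The lower ones included Klf4 (-0.68), Pik3ip1, an inhibitor of PI3 kinase (-0.66), Irs2 (-0.65), Bach2 (-0.54) and Foxo1 (-0.35). Pik3ip1 was at 9.98 and 9.83 at 3 h and at 9.26 and 9.24 at 6 h. Of 30 trafficking and adhesion genes 14 were lower and 2 higher, against the same shares of all genes. The falls were led by S1pr1, the receptor that guides lymphocytes out of tissue (-0.78 ± 0.09, adjusted p = 4.47e-06, limma), Itgb2 (-0.72) and Itgb7 (-0.69). They also held the chemokine receptors Cxcr4 (-0.51) and Cxcr5 (-0.46). T cells, NK cells and myeloid cells also express Itgb2 and S1pr1, and the part of those cells was not tested. The quiescence count was 6 and the trafficking count 5 without the replicate pairing, and both were 7 to 9 without 3 h replicate 2 or 6 h replicate 1. Foxo1, Cxcr5 and Cxcr4 were among the calls lost without the pairing.

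Some activation molecules and B cell regulators were lower at 6 h, while their shares called higher (11.5% to 17.9%) lay near or below the 17.8% of all genes. Of 26 activation and costimulation genes 10 were lower and 3 higher, against 8.14% of all genes lower, with Cd274, the checkpoint ligand PD-L1, at 11.83 and 11.47 at 3 h and at 10.84 and 10.73 at 6 h (-0.87 ± 0.10, adjusted p = 2.43e-06) and with Cd200 rising by 0.66. The activation markers Cd69, Cd86 and Cd83 fell by 0.41, 0.30 and 0.25 on the log2 scale. Of 33 genes of proximal receptor signalling 8 were lower and 5 higher, with the exchange factors Vav3 (0.85) and Rasgrp3 (0.55) rising and Bank1 and Fyn (both -0.60) falling. Of 28 B cell fate factors 8 were lower and 5 higher, with Prdm1 at -0.62, Bach2 at -0.54 and Irf4 at -0.46 among the lower and Tcf4 at 0.42 among the higher. The calls of Cd69, Cd86, Cd83, Irf4, Prdm1, Tcf4, Rasgrp3 and Bank1 were lost without the replicate pairing, and those of Cd83 and Cd86 without any 1 of the 4 arrays. Without the pairing the numbers lower were 2 for activation, 3 for proximal signalling and 1 for fate factors, and those higher 2, 2 and 0. The numbers lower were 4, 4 and 5 without 3 h replicate 2, and the activation count was 3 without 6 h replicate 1. The numbers higher were 1, 3 and 2 without 6 h replicate 2, with the first 2 the same without 3 h replicate 1, and 3 and 2 for signalling and fate factors without 6 h replicate 1. The number of fate factors higher was 3 without 3 h replicate 2. Ighm, the heavy chain of IgM, was at 11.06 and 11.21 at 3 h and at 10.76 and 10.75 at 6 h, with an adjusted p of 0.0594 in limma and no call, and Cd79a was at 13.02 and 12.73 and at 12.57 and 12.66 (adjusted p = 0.119).

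Some of the largest changes lay outside these lists. Apol7c was at 8.36 and 8.00 at 3 h and at 10.45 and 10.53 at 6 h (2.31 ± 0.17), and Sdc3, the cell surface proteoglycan syndecan 3, was at 8.54 and 8.31 at 3 h and at 10.66 and 10.47 at 6 h (2.14 ± 0.11). Both 6 h values were at least 2 log2 units above the 3 h values in Apol7c. Trim30d and Phf11c, close copies of interferon-induced genes, rose by 2.33 and 2.07. The largest fall was that of Mpp7, a scaffold protein, from 10.43 and 10.35 at 3 h to 8.21 and 8.10 at 6 h (-2.24 ± 0.10, adjusted p = 2.34e-11). Itga9, an integrin chain, went from 10.74 and 10.69 to 8.71 and 8.45 (-2.14 ± 0.11), and Lpp, an adhesion protein, from 10.36 and 10.56 to 8.49 and 8.20 (-2.12 ± 0.18). Lpp had 3 probe sets, of which the brightest is given, and its change lay between -2.28 and -1.09 over the alternatives run. Cd36, a lipid scavenger receptor, fell 2.84-fold. Hdc, which makes histamine, fell by 1.43, Plk2 by 1.41 and Cyp4f18 by 1.34. Car1 (-1.63), an erythroid enzyme, C1qb (-1.36), a macrophage complement gene, and Retnlg (-1.30), a neutrophil gene, were also among the 15 largest falls. Unlike the genes before them, they belong to the marker lists and are among the lower markers counted above. The part of those cells was not tested.

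Most of the largest changes were also called in B cells labelled TAK1-deleted, and several antiviral genes rose less there or were not called. Map3k7, which encodes TAK1, stood at 10.52 to 10.71 in the 4 wild type arrays and at 10.61 to 10.76 in the 4 arrays labelled TAK1-deleted, so its probe set did not check the labels. A probe set that reads parts of the gene outside the deleted exons cannot show the deletion. Which parts this probe set reads and how complete the deletion was were not tested, and the genotype rests on the labels. In those arrays 2486 genes (20.8%) were called in the step, with 1453 (12.1%) higher and 1033 (8.63%) lower. Of the 124 genes that rose at least 2-fold in wild type cells 118 were called higher there too, and of the 41 that fell at least 2-fold 37 were called lower. Of all 2126 called higher 1107 (52.1%) were called higher in those arrays as well, and of 974 lower 563 (57.8%). The arrays of the 2 genotypes are separate, although 1 fit estimates the spread for both. The count in those arrays was 728 without the replicate pairing, 1491 without 3 h replicate 2 and 1423 without 6 h replicate 1.

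The difference between the steps of the 2 genotypes was tested directly, and 30 genes (0.251%) were called, with 20 (0.167%) positive and 10 (0.0836%) negative. Of the 20 genes with the more positive change in wild type cells 7 were interferon-induced effectors, apart from Ddx60 (1.11) and Phf11d (0.89), which needed the wild type 6 h arrays to pass the filter and were tested because they stood high there. Mx1 rose from 7.58 and 7.35 to 9.97 and 9.64 in wild type cells and from 7.65 and 7.44 to 8.88 and 8.63 in the arrays labelled TAK1-deleted, a difference of 1.13 ± 0.15 (adjusted p = 0.00685, limma). Oas1a rose by 1.08 in wild type cells and changed by 0.06 in the others, where the 2 times overlapped (7.95 and 7.78, then 8.11 and 7.73), a difference of 1.02 ± 0.18 (adjusted p = 0.0192). Slfn5, Oas3, Rsad2, Cmpk2 and Ifih1 differed by 0.98, 0.91, 0.78, 0.76 and 0.74. Their changes in the arrays labelled TAK1-deleted ran from 0.63 (Ifih1) to 1.75 (Slfn5), so each rose in both genotypes. Over the 42 effectors without Ddx60 and Phf11d the median change was 1.13 in those arrays against 1.59 in wild type cells. In those arrays 38 of them were called higher, against 12.1% of all genes. The wild type change was the more positive in 37 of the 42. Among all genes that passed the filter without the wild type 6 h arrays, it was the more positive in 6814 of 11954. For sterol synthesis the medians were 0.90 and 0.95, with 16 and 15 called higher and no gene called in the difference. Among genes that differed the other way, Icam1, an adhesion ligand that NF-κB induces, fell from 10.94 and 11.04 to 10.54 and 10.56 in wild type cells and rose from 9.73 and 9.85 to 10.16 and 10.13 in the others (difference -0.79 ± 0.13, adjusted p = 0.0165). Map3k5, the stress kinase ASK1, fell by 1.00 in wild type cells and changed by -0.09 in the others. The count of 30 rested on single arrays: it was 2 without wild type 6 h replicate 2, 3 without TAK1-deleted 6 h replicate 2 and 0 without wild type 6 h replicate 1 (1284 genes at an unadjusted p below 0.05) or without the replicate pairing (268), by limma throughout.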

How the data were processed

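Affymetrix Mouse Gene 1.0 ST arrays measured total RNA of 20 samples in 10 groups of 2. The deposited values are on the log2 scale. The submitters' processing notes name RMA and the Affymetrix Expression Console 1.0 as the tools of the authors. The build behind the probe sets is not given in the sources used here. Arrays had medians of 7.37 to 7.52. RMA leaves a background, so folds of dim genes can be understated, and the number of arrays limits precision.

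The filter required 2 or more arrays at or above 7.45, which is the median over the whole value table, and 20326 of 35556 probe sets passed. The platform annotation gave 7191 of these several symbols or none, and they were left out. The brightest probe set of each gene was used, which left 11968 genes. Of these 11938 were matched to the RefSeq gene table by ID.

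limma 3.58.1 in R 4.3.3 (lmFit, eBayes with an intensity trend) fitted all 20 arrays with the replicate number as a block (9 residual degrees of freedom, prior 10.1). Tests are two-sided, with Benjamini-Hochberg adjustment within each comparison. Errors are standard errors. The replicate numbers come from the titles. They paired the arrays: replicate deviations correlated across genes with r of 0.19 to 0.77 in all 45 pairs of groups and 0.56 between 3 h and 6 h. Between replicates r was 0.988 at 3 h and 0.994 at 6 h. The fit was tested on simulated data.

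The members and the 58 gene lists (1328 symbols, 1161 tested) were chosen with earlier results of these data known. Genes were named by rule: the 15 largest rises and 15 largest falls without overlap, up to 4 called members of each list in each direction, the 5 largest differences between genotypes in each direction, and a fixed set called or not, of which not every gene is reported here. Other genes in the text were named after their values were seen. Alternatives varied the block, the arrays fitted, the filter, the normalization, the choice of probe set and the trend, and left out each array in turn.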

Additional observations from a re-analysis of the deposited data

Results flagged for a closer look

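The step from 3 h to 6 h differed between the genotypes, by the test of the difference itself in limma (adjusted p below 0.05), in 18 genes that a list holds or the naming rule picks. Values are the wild type change minus the change in arrays labelled TAK1-deleted, on the log2 scale. No group held enough arrays to look for a single array far from the others.

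Of these genes 7 were interferon-induced effectors more positive in wild type cells, namely Mx1 (1.13), Oas1a (1.02), Slfn5 (0.98), Oas3 (0.91), Rsad2 (0.78), Cmpk2 (0.76) and Ifih1 (0.74). Ddx60 (1.11) and Phf11d (0.89) are also effectors, but they needed the wild type 6 h arrays to pass the filter on dim probe sets and were tested because they stood high there. Tmem108 differed by 1.42, with a change of 0.36 in wild type cells that was not called and a fall of 1.06 in the others, whose 3 h replicates stood 1 log2 unit apart (9.27 and 8.23). Timd2 differed by 1.22, from a rise of 1.11 in wild type cells and a change of -0.11 in the others, at levels of 5.46 to 7.18 below the filter value. Bank1, a B cell scaffold protein, fell in both and by less in wild type cells, with a difference of 0.78.

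The other 6 were more negative in wild type cells. Icam1 (-0.79) fell there and rose in the others. Map3k5 (-0.91) and Htra4 (-0.88) fell there, by 1.00 and 1.03, and changed by -0.09 and -0.15 in the others. Mir181b-2 (-1.03), Suox (-0.80) and the integrin gene Itga4 (-0.73) were not called in wild type cells, with changes of -0.03, 0.01 and 0.05, and rose by 1.00, 0.81 and 0.78 in the others. The Mir181b-2 probe set may read the precursor or its host transcript, which the files do not tell apart.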

How the results depend on the processing

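The counts of interferon-induced effectors, sterol synthesis genes, immediate early genes and lower heat shock genes stayed within 1.5 times of the reported ones under every alternative run. Without the replicate block (no pairing) the wild type step had 1042 called genes (698 higher, 344 lower) and the TAK1-deleted step 728 (438 higher, 290 lower). The difference between genotypes then had 0 genes called by limma (0 higher, 0 lower), with 268 at an unadjusted p below 0.05. Without the block the numbers called were 8 for the respiratory chain, 4 for G1/S and DNA replication, 6 for interleukin receptors, 5 for trafficking, 6 for quiescence genes, 5 for MHC class I, 2 for T cell and 3 for NK cell markers. With each array left out in turn the wild type count lay between 1602 and 2385 (951 to 1810 higher, 557 to 780 lower), the TAK1-deleted count between 1423 and 2101 (814 to 1282 higher, 496 to 926 lower) and the difference between 0 and 33 (0 to 25 positive, 0 to 23 negative). The lists then lay at 12 to 21 for the respiratory chain, 5 to 13 for G1/S, 7 to 10 for interleukin receptors, 7 to 11 for trafficking, 7 to 15 for quiescence genes, 3 to 9 for T cell and 4 to 8 for NK cell markers. Where an arm keeps 1 array, that array is assumed to vary like the other groups. Quantile normalization again gave 16 genes with a negative difference in place of 10, and 58.4% of the wild type calls higher in place of 68.58%.

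Of 206 genes named in the text, 130 kept their direction and their side of the threshold in every alternative and 65 lost the call in at least 1. All 18 named differences between genotypes lost the call in at least 1. Direction turned only in genes that were not called. After quantile normalization again Mir181b-2 stood at 0.023 and Suox at -0.038. With each array left out in turn, the change lay at -0.31 to 0.0091 for Gbp3, -0.086 to 0.049 for Ggps1, -0.025 to 0.12 for Itga4, -0.15 to 0.091 for Mir181b-2, -0.073 to 0.028 for Ms4a1 and -0.13 to 0.15 for Suox. The cause of these shifts was not tested. Dim genes near the filter value have changes that background can compress.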
